A study of Mus musculus with 9 samples.

Results

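The 10 genes described here are the stress transcription factor Atf4, 5 of its well known targets (Asns, Ddit3, Trib3, Chac1 and Sesn2) and 4 enzymes that make serine and one-carbon units (Psat1, Phgdh, Shmt2 and Mthfd2). They were chosen by name from a table of 54532 genes, in which 11 rows carry these names. The additional row is a short second entry for Ddit3 (ENSMUSG00000116429), listed at 0 in every library and not used further. All 10 genes had a mean of at least 0.5 FPKM, reads scaled to gene length and to a size set for each library, and were among the 14683 genes tested.

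RNA was sequenced from duodenum of mice in 3 groups of 3 libraries after removal of ribosomal RNA. CeD+GR mice belonged to a delayed-type hypersensitivity (DTH) mouse model. The disease modelled is celiac disease, an immune disorder of the gut driven by dietary gluten. The mice were first given composite nanoparticles of gliadin, a gluten protein fraction, with the mTOR inhibitor rapamycin, and then received enhanced gluten stimulation. CeD mice were the same model with enhanced gluten stimulation and without the nanoparticles, and control mice were wild type (WT) with gluten stimulation that was not enhanced, so CeD and control differ in both the model and the stimulation. How DTH was induced, the strain, age and sex, and whether each library is a different mouse are not stated in the labels. A p-value here therefore weighs only the scatter of these libraries, and that scatter may be technical.

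As background, several kinases that sense different stresses, among them Eif2ak4 (GCN2, uncharged tRNA), Eif2ak3 (PERK, misfolded protein in the endoplasmic reticulum) and Eif2ak2 (PKR, double-stranded RNA), phosphorylate the same translation initiation factor. General protein synthesis then slows while translation of the Atf4 transcript rises, and the ATF4 protein switches on genes of amino acid synthesis, uptake and tRNA charging. In other mammalian cells mTORC1, the complex inhibited by rapamycin, also raises ATF4, again largely through translation, and through it enzymes of serine and one-carbon metabolism. An mRNA level of Atf4 is therefore not a measure of the protein's activity.

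Sequences are shown for the members that carry, near their start, the letters through which ATF4 is known to act. The core of the amino acid response element, TGATGNAA, was searched on both strands in the 300 bases around each gene start in RefSeq (GRCm38.p6, the assembly of mm10), from 250 bases before to 50 bases after the start. It is found in 3.97% of 32851 such windows, and in those of 3 of the 10 genes, namely Asns, Chac1 and Trib3. The related letters TGACGNAA, also searched on both strands and present in 1.59% of the windows, occur in the Chac1 window alone among the 10 genes. The full endoplasmic reticulum stress element, in 0.119% of all windows, occurs in 0 of the 10, which says only that its letters are not in these windows. The motifs do not overlap each other here. Capitals mark the matched letters, read along the gene's own strand.
Asns: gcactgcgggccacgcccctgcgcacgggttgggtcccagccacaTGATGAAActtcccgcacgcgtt
Chac1: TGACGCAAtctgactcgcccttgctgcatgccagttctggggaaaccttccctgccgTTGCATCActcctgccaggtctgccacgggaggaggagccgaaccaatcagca
Trib3: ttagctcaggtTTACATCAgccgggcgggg
The Asns stretch is chr6:7693210-7693277 on the minus strand and ends at the last base before the start, with the match 23 to 16 bases before it. The Chac1 stretch is chr2:119350992-119351101 on the plus strand, with matches 250 to 243 and 193 to 186 bases before the start, the second on the opposite strand. The Trib3 stretch is chr2:152344028-152344057 on the minus strand, with its match on the opposite strand at bases 15 to 22 after the start. These distances count from the RefSeq start, which differs from the gene start in the deposited coordinates given below. By the deposited coordinates Asns starts at 7693254, so its match, at 7693225 to 7693232, lies inside the gene. Trib3 starts at 152344032 by them, so its match, at 152344039 to 152344046, lies before the start. A match describes letters and is not a measured binding site.

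Library depth was even, at 15373260 to 16852104 gene-assigned reads. The library sizes that the FPKM imply were less even, from 14410550 in CeD 2 to 18206426 in control 1. They exceeded the assigned reads in control 1 (16185014) and CeD 1 (17831210 against 15373260). In control 2 (14641212 against 16372119) and CeD 2 (16195917 reads) they were smaller. FPKM are thus not plain shares of the assigned reads. All 10 markers of duodenal enterocytes, among them Fabp1, Apoa4 and Sis, were detected in every library, with a mean level of 8.50 in CeD+GR 3 and 9.89 to 11.2 in the others (log2 scale). Libraries stood apart in other cell types. In CeD+GR 3 the 6 markers of gastric mucous cells and Brunner glands summed to 139685 FPKM, against at most 50.5 FPKM elsewhere, and Muc5ac was at 0 in the other 8 libraries. Of the 6, 0 were detected in every library. In CeD 1 the 12 markers of exocrine pancreas, 1 of them detected in every library, summed to 3924 FPKM, against 3.24 to 56.0 FPKM elsewhere. The 3 libraries with replicate number 1, whose columns stand last in the table, were high in crypt proliferation markers (10 of 10 detected in every library). Their mean level was 3.06, 3.62 and 3.18 in CeD+GR 1, CeD 1 and control 1, and 0.905 to 2.46 in the other 6 libraries. Their summed level was 29.5 to 105 FPKM in CeD+GR, 36.0 to 137 FPKM in CeD and 40.5 to 104 FPKM in control. Paneth cell markers (5 of 7 detected in every library) had mean levels of 6.81, 6.76 and 5.83 in these 3 libraries and 2.27 to 3.33 in the other 6. The same 3 libraries were also above the other 6 for stem cell, plasma cell and myeloid markers. Myeloid means were 3.72, 3.36 and 3.56 against at most 2.84, stem cell means at least 2.75 against at most 2.62, and plasma cell means at least 4.05 against at most 3.97. Smooth muscle means were lower, at 3.37, 4.24 and 4.55 against at least 4.86. In CeD+GR 2 the 5 adipocyte markers (1 detected in every library) summed to 377 FPKM, against 35.2 to 100.4 FPKM elsewhere, and Adipoq was at 26.6 FPKM against at most 1.51 FPKM. In CeD 3 the 7 smooth muscle markers summed to 993 FPKM, against 126 to 510 FPKM elsewhere. In bulk tissue, fewer cells of a type and less RNA per cell cannot be told apart.

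Per gene length, Atf4 was by far the most abundant of the 10 transcripts, with a mean of 99.9 FPKM over the 9 libraries, above Asns in 9 of 9. Asns followed at 16.2 FPKM, Ddit3 at 11.9, Trib3 at 8.69, Mthfd2 at 6.92, Shmt2 at 5.97, Phgdh at 4.83, Sesn2 at 2.70, Psat1 at 1.89 and Chac1 at 1.47 FPKM. Below Atf4 the ranges of neighbours in this order overlapped. Asns lay above Ddit3 in 6 libraries, Trib3 above Mthfd2 in 6, and Mthfd2 above Shmt2 in only 4. Sesn2 varied least, 1.99 times between its lowest and highest library, and Chac1 most, 16.5 times. Chac1 and Psat1 rest on few reads, 7 to 129 and 40 to 260 per library, while Atf4 had 2155 to 5548.

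**Figure D1:**
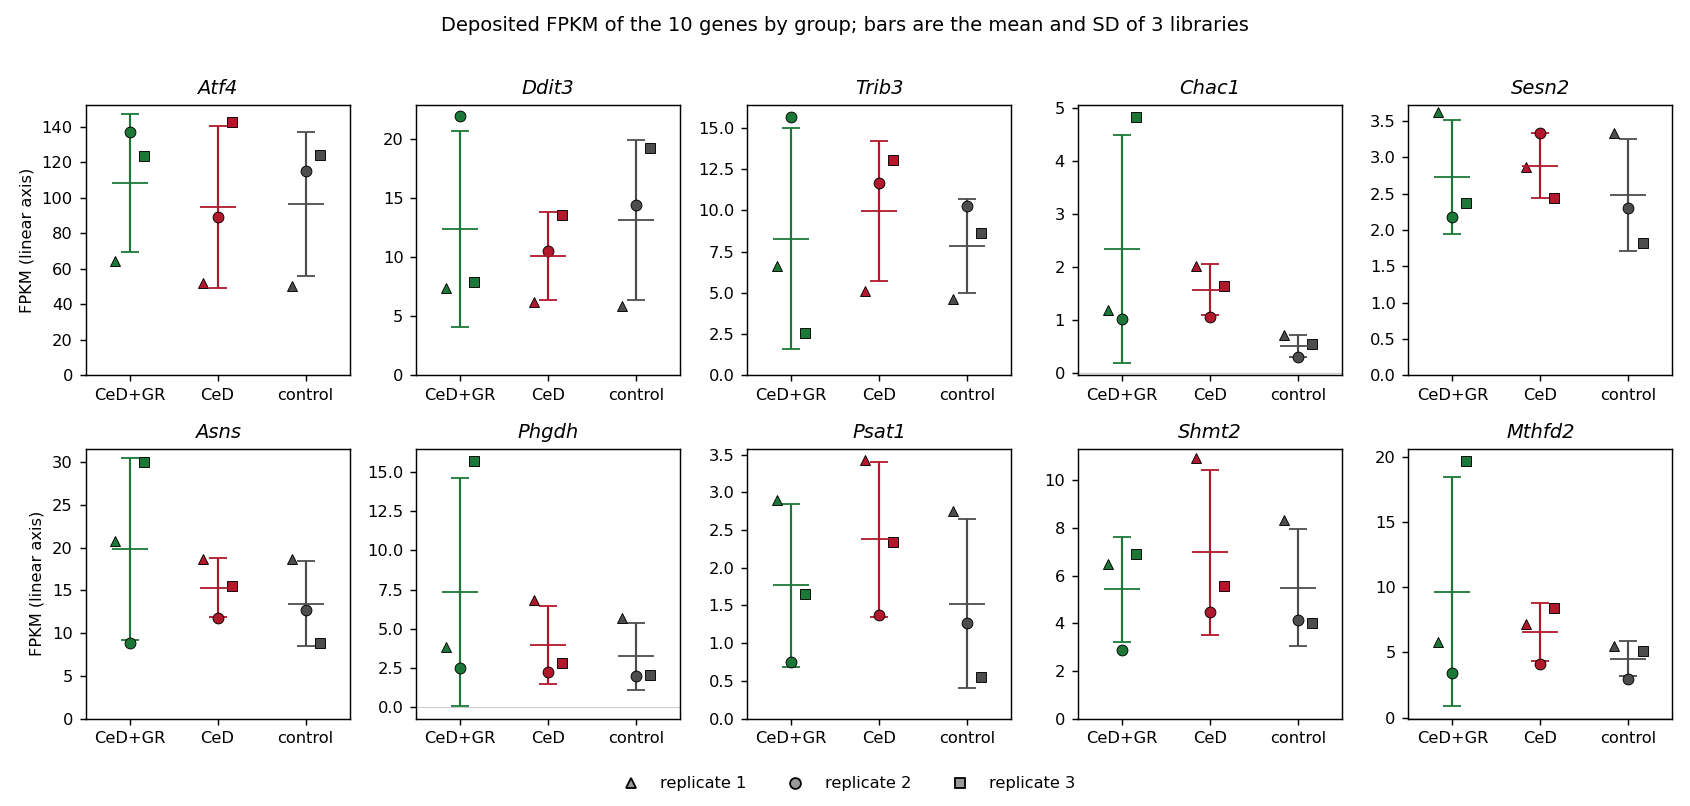
Deposited FPKM (linear axis) of each gene in the 9 libraries, by group, with the replicate number as the symbol and bars for the mean and SD of 3 libraries. Replicate 1 libraries (triangles) are the lowest of their groups for Atf4 and Ddit3, and for Chac1 both CeD+GR and CeD libraries lie above all control libraries.

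Atf4 (ENSMUSG00000042406, mm10 chromosome 15, 80255184 to 80257541, plus strand) stood at 64.4, 137 and 124 FPKM in CeD+GR 1 to 3, against 51.8, 89.2 and 143 FPKM in the CeD libraries, then at 50.2, 115 and 124 FPKM in control 1 to 3. In each group the replicate 1 library was lowest, and the 3 groups covered nearly the same range. Group means were 109 ± 38.8 FPKM in CeD+GR, 94.6 ± 45.7 FPKM in CeD and 96.6 ± 40.5 FPKM in control (SD, n = 3 each). The log2 fold change was 0.24 (SE 0.50) for CeD+GR against CeD, 0.20 (SE 0.50) for CeD+GR against control and -0.04 (SE 0.50) for CeD against control. All 3 are smaller than their standard errors.

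Ddit3 encodes CHOP, a transcription factor that ATF4 induces and that promotes cell death under lasting stress (ENSMUSG00000025408, chromosome 10, 127290774 to 127296288, plus strand). It shares 68 bases with Mars on the opposite strand, and the strand setting of the counting is not given in the sources used here. Its levels were 7.39, 22.02 and 7.89 FPKM in CeD+GR 1 to 3, 6.22, 10.5 and 13.6 FPKM in CeD 1 to 3, and 5.87, 14.5 and 19.3 FPKM in control 1 to 3. The lowest library of each group was again replicate 1. CeD+GR 3, which was high in Atf4, was almost as low in Ddit3. Its log2 fold changes were 0.17 for CeD+GR against CeD, -0.11 for CeD+GR against control and -0.28 for CeD against control, each with an SE of 0.54.

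Trib3, a pseudokinase that ATF4 and CHOP induce and that dampens their activity (ENSMUSG00000032715, chromosome 2, 152337422 to 152344032, minus strand), had 6.65, 15.7 and 2.53 FPKM in CeD+GR 1 to 3. It had 5.12, 11.7 and 13.1 FPKM in CeD 1 to 3 and 4.65, 10.3 and 8.62 FPKM in control 1 to 3. CeD+GR thus held both the highest and the lowest of the 9 libraries. The log2 fold change of CeD+GR against CeD was -0.47 (SE 0.61), and without CeD+GR 3 it turned to 0.14.

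Chac1, which encodes an enzyme that degrades glutathione (ENSMUSG00000027313, chromosome 2, 119351229 to 119354381, plus strand), was the member with the clearest order of groups. It stood at 1.18, 1.01 and 4.82 FPKM in CeD+GR 1 to 3, against 2.02, 1.06 and 1.63 FPKM in the CeD libraries, then at 0.705, 0.292 and 0.543 FPKM in control 1 to 3. Every CeD+GR and every CeD library lay above every control library, while CeD+GR and CeD overlapped. These values rest on 30, 26 and 129 reads in CeD+GR, 59, 25 and 44 in CeD, and 21, 7 and 15 in control. Against control, the log2 fold change was 1.25 (SE 0.48) in CeD+GR (limma, unadjusted p = 0.0284, adjusted p = 1) and 1.02 (SE 0.48) in CeD (limma, unadjusted p = 0.0617, adjusted p = 1). Neither passed, and both share the control libraries. Without CeD+GR 3 the CeD+GR value was 0.67, and limma-voom on recovered reads gave 1.85 for CeD+GR and 1.62 for CeD. CeD+GR against CeD had a log2 fold change of 0.23 (SE 0.48), and it turned to -0.35 without CeD+GR 3.

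Sesn2 encodes sestrin 2, a stress protein that restrains mTORC1 when leucine is scarce (ENSMUSG00000028893, chromosome 4, 132492032 to 132510501, minus strand). It had 3.62, 2.17 and 2.38 FPKM in CeD+GR 1 to 3, 2.87, 3.33 and 2.44 FPKM in CeD 1 to 3, and 3.34, 2.30 and 1.83 FPKM in control 1 to 3. The groups overlapped throughout, and the log2 fold changes between them lay between -0.09 and 0.20 (SE 0.27).

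Asns, asparagine synthetase, is the standard reporter of the amino acid response (ENSMUSG00000029752, chromosome 6, 7675169 to 7693254, minus strand). It stood at 20.7, 8.80 and 30.0 FPKM in CeD+GR 1 to 3, against 18.7, 11.8 and 15.5 FPKM in the CeD libraries, then at 18.7, 12.7 and 8.84 FPKM in control 1 to 3. The replicate 1 libraries, low in Atf4, were the highest of their group for Asns in CeD and control, and in CeD+GR only CeD+GR 3 was higher. The ratio of Asns to Atf4 within a library was 0.322, 0.361 and 0.373 in CeD+GR 1, CeD 1 and control 1, and 0.0640 to 0.242 in the other 6. Against control, the log2 fold change of CeD+GR was 0.45 (SE 0.45) and without CeD+GR 3 it was 0.08. It was 0.23 for CeD+GR against CeD (SE 0.45), and it turned to -0.15 without that library.

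The first step of serine synthesis from glucose is made by Phgdh, 3-phosphoglycerate dehydrogenase (ENSMUSG00000053398, chromosome 3, 98313170 to 98339990, minus strand). It had 3.82, 2.45 and 15.7 FPKM in CeD+GR 1 to 3, 6.81, 2.23 and 2.78 FPKM in CeD 1 to 3, and 5.66, 1.95 and 2.05 FPKM in control 1 to 3. CeD+GR 3 was 2.31 times the next library, and without it the 3 replicate 1 libraries were above the other 5. The log2 fold change of CeD+GR against control was 0.81 (SE 0.67), and 0.08 without CeD+GR 3. For CeD+GR against CeD it was 0.55 (SE 0.67), and it turned to -0.18 without that library.

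Psat1, phosphoserine aminotransferase, makes the next step (ENSMUSG00000024640, chromosome 19, 15904678 to 15947337, minus strand). Levels were 2.90, 0.746 and 1.65 FPKM in CeD+GR 1 to 3, 3.43, 1.37 and 2.34 FPKM in CeD 1 to 3, and 2.75, 1.27 and 0.557 FPKM in control 1 to 3. It was the only one of the 10 genes with all 3 replicate 1 libraries above all 6 others, and unlike Phgdh it was not high in CeD+GR 3. The ratio of Phgdh to Psat1 was 9.51 in CeD+GR 3 and 1.19 to 3.68 in the other 8 libraries. The log2 fold change of Psat1 was -0.40 (SE 0.51) for CeD+GR against CeD and 0.59 (SE 0.51) for CeD against control. Leaving out 1 library moved them to between -0.75 and -0.025 and between 0.20 and 1.01. Psph, the phosphatase of the last step, ranged from 0.968 to 2.33 FPKM.

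Shmt2 moves a carbon unit from serine to folate inside mitochondria (ENSMUSG00000025403, chromosome 10, 127517123 to 127522444, minus strand). It had 6.48, 2.88 and 6.92 FPKM in CeD+GR 1 to 3, 10.9, 4.46 and 5.56 FPKM in CeD 1 to 3, and 8.34, 4.13 and 4.02 FPKM in control 1 to 3. CeD 1 was highest, followed by control 1, and the groups overlapped. The log2 fold change of Shmt2 was -0.32 (SE 0.44) for CeD+GR against CeD and 0.30 (SE 0.44) for CeD against control. Mthfd2, the mitochondrial folate enzyme that acts after it (ENSMUSG00000005667, chromosome 6, 83305691 to 83325908, minus strand), had 5.80, 3.44 and 19.7 FPKM in CeD+GR 1 to 3. It had 7.19, 4.12 and 8.44 FPKM in CeD 1 to 3 and 5.50, 2.96 and 5.12 FPKM in control 1 to 3. CeD+GR 3 was 2.33 times the next library, and replicate 1 libraries were not separate from the rest for this gene. The Mthfd2 log2 fold change of CeD+GR against control was 0.70 (SE 0.56), and 0.03 without CeD+GR 3. The value for CeD+GR against CeD was 0.22 (SE 0.56), and it turned to -0.45 without that library.

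**Figure D2:**
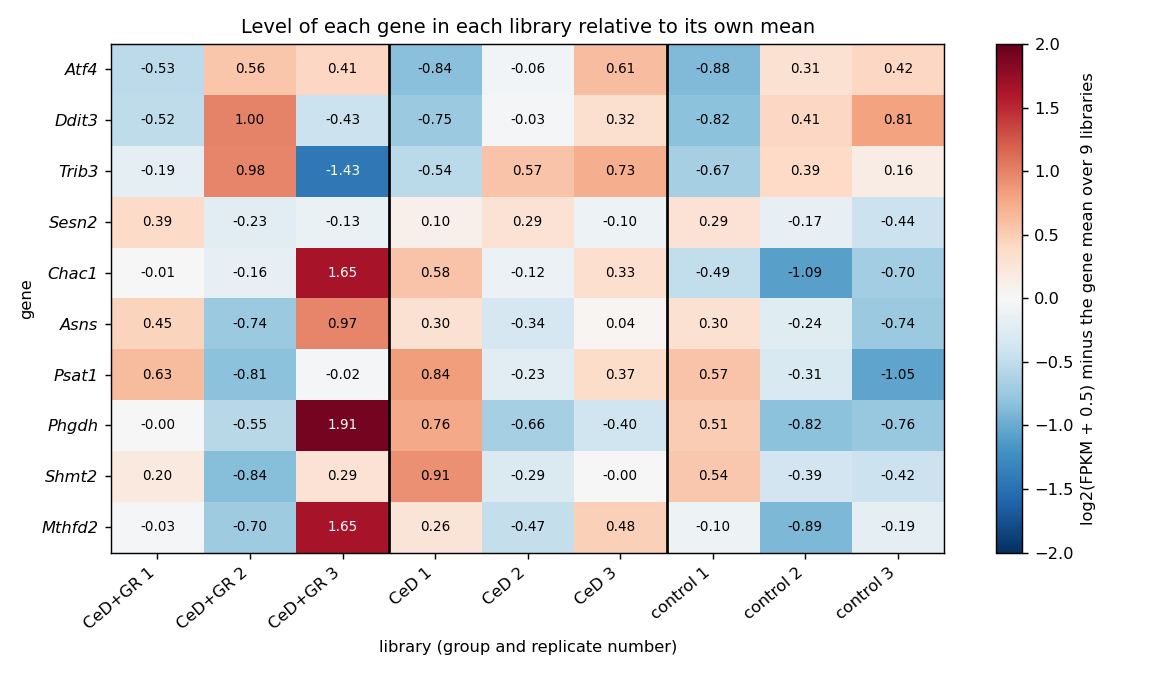
Colour and number give log2(FPKM + 0.5) of each gene (rows) in each library (columns, by group and replicate number) minus the gene's mean over the 9 libraries. Replicate 1 columns are blue for Atf4, Ddit3 and Trib3, and CeD+GR 3 is dark red for Chac1, Phgdh and Mthfd2 and blue for Trib3.

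The 10 genes did not follow a single pattern, nor did Asns, Chac1 and Trib3, the 3 with a TGATGNAA match near their start. In CeD+GR 3, Asns and Chac1 were at their highest of the 9 libraries and Trib3 was at its lowest. With CeD+GR 3 set aside, after the values were seen, the 3 replicate 1 libraries lay above the other 5 for 4 genes, Asns, Psat1, Phgdh and Shmt2, and below them for 3, Atf4, Ddit3 and Trib3. Among all tested genes, 17.7% lay above and 14.4% below in this way. With CeD+GR 3 included, the counts were 1 above and 2 below, against 9.06% and 7.25% of all tested genes. The replicate 1 libraries are those with the high crypt proliferation, stem cell, Paneth cell, plasma cell and myeloid levels given above. They are also those with the low smooth muscle levels. The part of these cell types was not tested.

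CeD+GR 3 was the highest of the 9 libraries for 4 of the 10 genes and the lowest for 1, where it was highest for 23.8% and lowest for 20.4% of all tested genes. It was at least 2 times the next library for 3 of the 10, Chac1, Phgdh and Mthfd2, and for 5.63% of all tested genes. The gastric and Brunner gland markers of this library are given above, and their part in these levels was not tested. CeD+GR 2, the library with the high adipocyte markers, was highest for Ddit3 and Trib3 and lowest for Asns and Shmt2. Among all tested genes it was highest for 17.2% and lowest for 22.1%, and the part of the adipocyte markers was not tested. CeD 1, the library with the high pancreas markers, was highest for 2 of the 10, Psat1 and Shmt2, and for 11.8% of all tested genes. In CeD+GR 1 and control 1, Psat1 was at 2.90 and 2.75 FPKM and Shmt2 at 6.48 and 8.34 FPKM. The part of the pancreas markers was not tested. Atf4 was highest in CeD 3, as were 7.05% of all tested genes. This is the library with the high smooth muscle markers, whose part was not tested.

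The comparison of CeD with control asks how the model under enhanced gluten stimulation differs from wild type. Of the 10 genes, 0 passed at an adjusted p of 0.05 (limma, Benjamini-Hochberg over 14683 genes), as did 0% of all tested genes in either direction. At an unadjusted p under 0.05 there were 0 of the 10 and 103 of all genes (0.701%), and limma-voom on recovered reads called 0 genes. Evenly spread p-values would put a fraction of 0.05 of the genes there, more than in this or either other comparison. That 0 genes passed therefore does not show that the groups are alike. Fold changes were positive for 8 of 10, with a median log2 fold change of 0.27, where 50.6% of all genes were positive with a median of 0.00. In 1 gene, Chac1, every CeD library lay above every control library, where 2.2% of all tested genes did. Standard errors of the 10 were 0.27 to 0.67, against a median of 0.35 over all tested genes.

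For CeD+GR against CeD, the comparison of the nanoparticles within the model, 0 of the 10 passed (limma, adjusted p of 0.05), as did 0% of all tested genes. At an unadjusted p under 0.05 there were 0 of the 10 and 425 of all genes (2.89%), and limma-voom called 0. The log2 fold changes were positive for 6 of the 10, where 51.1% of all genes were positive, and ran from -0.47 for Trib3 to 0.55 for Phgdh. Their median was 0.19, and 0.01 over all genes. In 0 of the 10 were the groups separate, where 6.05% of all tested genes were.

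For CeD+GR against control, 0 of the 10 passed (limma, adjusted p of 0.05), with 0% of all tested genes called. At an unadjusted p under 0.05 there was 1 of the 10, Chac1, and 400 of all genes (2.72%), and limma-voom called 0. Fold changes were positive for 7 of 10 with a median of 0.20, against 49.7% positive and a median of -0.00 over all genes. Chac1 was the 1 gene with CeD+GR wholly above control, where 2.54% of all tested genes were.

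**Figure D3:**
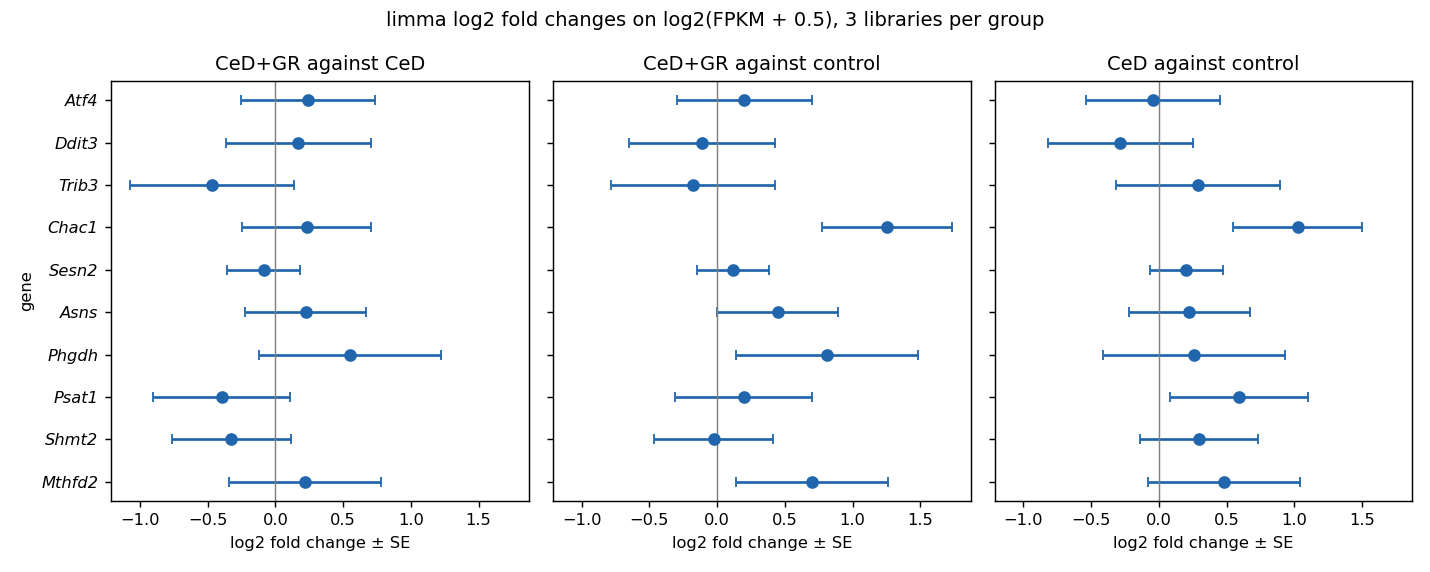
Log2 fold change (limma on log2(FPKM + 0.5), horizontal axis) with its standard error for each gene in the 3 comparisons, 3 libraries per group. Chac1 is the gene farthest from 0 in both comparisons with control, at 1.25 for CeD+GR and 1.02 for CeD, and no gene passed at an adjusted p of 0.05.

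Related genes were read from 6 lists, and 0 members of any list passed in any comparison (limma, adjusted p of 0.05, 0% of all tested genes called in each). Of 11 kinases, regulators and phosphatases of the stress response, 0 were below an unadjusted p of 0.05 in any comparison, and 5 were highest in CeD+GR 3. Eif2ak3 had 6.56, 4.76 and 13.3 FPKM in CeD+GR 1 to 3, 6.37, 5.49 and 3.83 FPKM in CeD 1 to 3, and 5.42, 4.75 and 4.33 FPKM in control 1 to 3. Eif2ak4 reached 2.99 FPKM in CeD+GR 3, against 0.530 to 1.35 FPKM in the other 8 libraries. Both kinases were highest in CeD+GR 3, which did not hold for Eif2ak1 and Eif2ak2. Eif2ak1 was lowest there, at 11.8 FPKM, against 12.5 to 19.4 FPKM in the other 8 libraries. Eif2ak2 had 9.60, 18.8 and 10.9 FPKM in CeD+GR 1 to 3 and 13.6, 14.4 and 13.9 FPKM in CeD 1 to 3. In control 1 to 3 it had 21.2, 17.9 and 14.2 FPKM. Its log2 fold change was -0.47 (SE 0.27) for CeD+GR against control and -0.32 (SE 0.27) for CeD against control.

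Of 12 aminoacyl-tRNA synthetases, which charge tRNAs with amino acids and are classical ATF4 targets, 9 were highest in CeD+GR 3. Their log2 fold change was positive for 9 of 12 in CeD+GR against CeD (median 0.16), where 51.1% of all tested genes were (median 0.01). It was also positive for 9 of 12 in CeD against control (median 0.13) and 10 of 12 in CeD+GR against control (median 0.25). Among all tested genes 50.6% and 49.7% were positive in those 2 comparisons. Gars, the glycyl-tRNA synthetase, had 40.1, 33.4 and 50.8 FPKM in CeD+GR 1 to 3, 32.6, 23.5 and 29.0 FPKM in CeD 1 to 3, and 34.0, 33.7 and 35.0 FPKM in control 1 to 3. Every CeD+GR library lay above every CeD library, and every CeD library below every control library, as did 3.01% and 2.49% of all tested genes. The log2 fold change was 0.53 (SE 0.22) in CeD+GR against CeD (limma, unadjusted p = 0.0414, adjusted p = 1) and -0.28 (SE 0.22) in CeD against control, 2 comparisons that share the CeD libraries. Cars, the cysteinyl-tRNA synthetase, had 5.73, 7.87 and 8.41 FPKM in CeD+GR and 4.80, 5.05 and 4.39 FPKM in control, without overlap (limma, log2 fold change 0.56, SE 0.23, unadjusted p = 0.0343, adjusted p = 1). It was 1 of the 12 with CeD+GR wholly above control, where 2.54% of all tested genes were. Against CeD, 2 of the 12 were wholly higher in CeD+GR, Gars and Sars.

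Of 8 tested carriers of amino acids, 6 were highest in CeD+GR 3. Slc1a5, a glutamine carrier, reached 57.0 FPKM there, against 7.26 to 19.5 FPKM in the other 8, and Slc7a5, which pairs with Slc3a2 for leucine uptake, reached 11.8 FPKM against 0.702 to 7.83 FPKM. Slc3a2 was lowest in CeD+GR 3, with 42.2 FPKM there and 66.4 to 158 FPKM elsewhere. Carriers had positive log2 fold changes in 8 of 8 for CeD against control (median 0.34), where 50.6% of all tested genes were positive with a median of 0.00, and the groups overlapped for each of them.

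Of 16 tested genes of serine, glycine, folate and proline synthesis, 15 reached the minimum of 0.5 FPKM without CeD+GR 3, and 6 of these were highest in that library. The other, Pycr1, the last enzyme of proline synthesis, stood at 13.3 FPKM there and at 0.104 to 0.955 FPKM elsewhere. It was tested only through CeD+GR 3, since its mean over the other 8 libraries was 0.456 FPKM. In 3 of the 16, among them Shmt1 and Mthfd1, the cytosolic partners of Shmt2 and Mthfd2, all 3 replicate 1 libraries lay above the other 6. So did 9.06% of all tested genes. Mthfd1 had 8.69, 12.7 and 11.1 FPKM in CeD+GR 1, CeD 1 and control 1, and 1.63 to 7.92 FPKM in the other 6 libraries. Shmt1 had 7.98, 12.0 and 9.46 FPKM in CeD+GR 1, CeD 1 and control 1, and 1.34 to 5.26 FPKM in the other 6 libraries. The ratio of Shmt2 to Shmt1 was 0.812, 0.909 and 0.881 in those 3 libraries, so that the cytosolic transcript was the more abundant, and 1.32 to 3.96 in the other 6, where the mitochondrial one was. The ratio of Mthfd2 to Mthfd1 was 0.667, 0.565 and 0.493 in the replicate 1 libraries and 0.815 to 2.94 in the others. Mthfd2l, a paralog of Mthfd2, averaged 1.10 ± 0.0958 FPKM in CeD and 0.706 ± 0.166 FPKM in control (SD, n = 3 each), without overlap, a log2 fold change of 0.42 (SE 0.29, limma, adjusted p = 1). These values rest on 137, 95 and 127 reads in CeD and 106, 68 and 61 in control. Of the 16 genes, 2 were wholly higher in CeD than in control, Mthfd2l and Amt, where 2.2% of all tested genes were.

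Among 10 tested partners and other targets of ATF4, 9 reached the minimum without CeD+GR 3, and 1 of these was highest in that library. This was Nupr1, a stress protein that is also abundant in pancreas, at 85.0 FPKM, against 13.5 FPKM in CeD 1, the next library. Vldlr, a lipoprotein receptor, stood at 7.59 FPKM in CeD+GR 3 and was tested only through it, with a mean of 0.369 FPKM over the other 8 libraries. Atf5, a relative of Atf4, averaged 20.8 ± 4.12 FPKM in CeD+GR, 22.1 ± 8.20 FPKM in CeD and 15.9 ± 3.41 FPKM in control (SD, n = 3 each). Atf3, another stress factor, was lowest in CeD+GR 3, at 5.17 FPKM, and 8.59 to 20.4 FPKM elsewhere. Of 14 genes of the unfolded protein response of the endoplasmic reticulum, 10 were highest in CeD+GR 3. Herpud1, which aids degradation of misfolded proteins, averaged 137 ± 26.0 FPKM in CeD+GR and 88.3 ± 9.34 FPKM in CeD (SD, n = 3 each), without overlap, a log2 fold change of 0.62 (SE 0.28, limma, adjusted p = 1). Control averaged 114 ± 32.8 FPKM (SD, n = 3), reached 151 FPKM and overlapped both other groups. Herpud1 was the 1 gene of the 14 with CeD+GR wholly above CeD, where 3.01% of all tested genes were. These counts for CeD+GR 3 stand beside 23.8% of all tested genes, or 22.4% of the genes that reached the minimum over the other 8 libraries, and beside the gastric markers of that library, whose part was not tested.

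**Figure D4:**
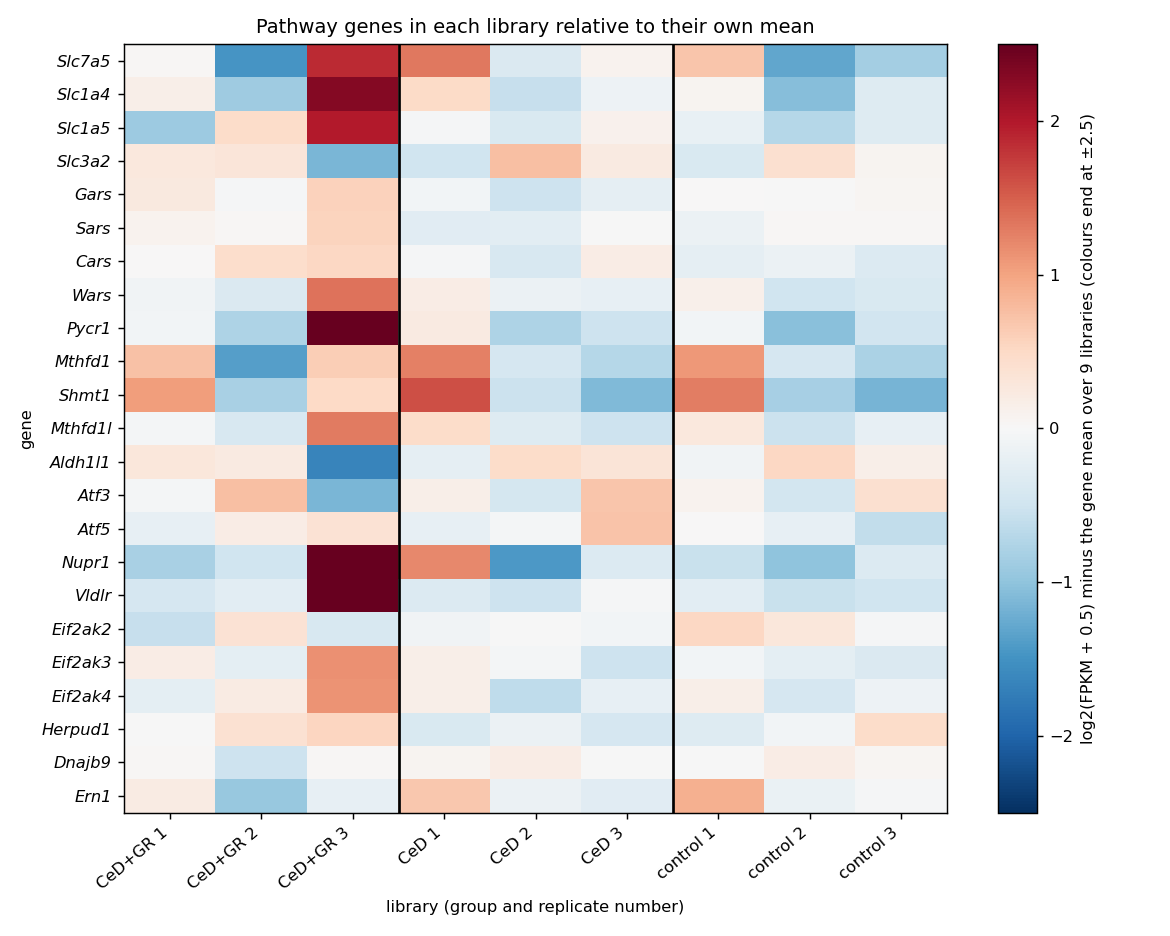
Colour gives log2(FPKM + 0.5) of related genes (rows) in each library (columns) minus the gene's mean over the 9 libraries. CeD+GR 3 is dark red for Slc1a4, Slc1a5, Pycr1, Nupr1 and Vldlr and blue for Slc3a2, Aldh1l1 and Atf3, and Shmt1 and Mthfd1 are red in the 3 replicate 1 libraries.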

How the data were processed

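The authors deposited FPKM per gene in 1 table, with gene lengths in bases as a further column of another kind and coordinates. The submitters' processing notes list featureCounts 1.5.0-p3, HISAT2 2.0.5, mm10, fastp and DESeq2 1.20.0, with no role or order. They state neither the FPKM formula nor the annotation release. FPKM times gene length gave whole multiples of 1 step per library, within 0.1 reads, for 100% of values above 0 in each library, which gave the read numbers printed.

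Groups were taken from the sample titles. Values were taken as log2(FPKM + 0.5), genes averaging 0.5 FPKM or more were kept, and groups were compared with limma 3.58.1 (R 4.3.3). A single model with a mean per group held the 9 libraries, with a mean-variance trend, two-sided tests and Benjamini-Hochberg adjustment over 14683 genes. Fold changes on this scale understate changes of low genes. No exact permutation test of 3 libraries against 3 reaches below p = 0.1. Levels of marker lists are means of log2(FPKM + 0.5).

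Deviations from group means correlated at 0.71, 0.37 and 0.41 between CeD and control libraries of the same number. Control 2 and CeD 3, of different numbers, correlated at 0.46, above the values for numbers 2 and 3. The labels name no pairs, so whether the number pairs CeD and control libraries is not settled. The main model has no term for the number, and its standard errors and p-values leave any such pairing out. A fit with the number as a block is given below. All 10 genes are named. Of each pathway list the rule takes the 3 members with the smallest unadjusted p per comparison, and stress kinases and partner enzymes of the 10. The members and lists were chosen with earlier results of these data known. Motifs were searched in RefSeq promoter windows, and all 10 genes had one (11 windows, 2 of them for Psat1).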

Additional observations from a re-analysis of the deposited data

How the results depend on the processing

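Over 10 planned and 4 added alternatives and 9 fits that each left out 1 library, the fold changes of the 10 genes passed in 0 of 684 cases. The smallest adjusted p was 0.42 (limma with array weights, Chac1 in CeD against control). Direction was kept in 630 and turned in 54. The alternatives were pseudocounts of 0.1 and 1, no filter, a mean of at least 2 FPKM, median-of-ratios rescaling, quantile normalization, fits of 1 comparison's groups alone, no trend, array weights and the replicate number as a block. Psat1 and Chac1 had no value with a mean of at least 2 FPKM. Alternatives chosen after seeing the data were limma-voom, a term for replicate 1, replicates 2 and 3 only, and CeD 1 and CeD+GR 3 both left out. The cause of the turns was not tested.

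Quantile normalization turned Atf4 in CeD against control to 0.035. Array weights turned, in CeD+GR against CeD, Atf4 to -0.17, Ddit3 to -0.18, Sesn2 to 0.014, Psat1 to 0.19 and Shmt2 to 0.087, and in CeD+GR against control Atf4 to -0.41 and Shmt2 to 0.34. With replicates 2 and 3 only, Shmt2 in CeD+GR against control was 0.13. With CeD 1 and CeD+GR 3 both left out, CeD against control gave Atf4 0.33, Ddit3 0.014, Phgdh -0.17 and Shmt2 -0.055. The same setting gave Atf4 -0.26, Chac1 -0.19 and Mthfd2 -0.37 in CeD+GR against CeD, and Ddit3 0.11 and Trib3 0.43 in CeD+GR against control.

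With 1 library left out, log2 fold changes of CeD against control ranged from -0.46 to 0.33 for Atf4, -0.033 to 0.49 for Asns, -0.76 to 0.056 for Ddit3, -0.022 to 0.69 for Trib3, -0.17 to 0.69 for Phgdh and -0.055 to 0.61 for Shmt2. For CeD+GR against CeD they ranged from -0.13 to 0.60 for Atf4, -0.15 to 0.71 for Asns, -0.32 to 0.44 for Ddit3, -1.07 to 0.14 for Trib3, -0.35 to 0.56 for Chac1, -0.28 to 0.034 for Sesn2, -0.18 to 1.05 for Phgdh, -0.57 to 0.039 for Shmt2 and -0.45 to 0.72 for Mthfd2. For CeD+GR against control the ranges were -0.21 to 0.54 for Atf4, -0.60 to 0.23 for Ddit3, -0.77 to 0.43 for Trib3, -0.076 to 0.31 for Sesn2, -0.20 to 0.61 for Psat1 and -0.23 to 0.34 for Shmt2. Over all genes the number past the threshold was 0 in each comparison and alternative, with 1 exception, since without control 1 limma called 1 gene in CeD+GR against control (range 0 to 1). The number at an unadjusted p under 0.05 ranged over these settings from 226 to 1116 for CeD+GR against CeD, 189 to 1072 for CeD+GR against control and 52 to 1354 for CeD against control.

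With the replicate number as a block, limma called 0 genes in each comparison, and Chac1 was at 1.02 and 1.25 against control (unadjusted p = 0.041 and 0.0185). CeD+GR 1 correlated at 0.41 with control 1 and 0.37 with CeD 1, and CeD+GR 2 at 0.40 with control 2 and 0.25 with CeD 2. CeD+GR 3 correlated at -0.11 with control 3 and -0.12 with CeD 3. CeD+GR 2 and CeD 3, of different numbers, correlated at 0.50. Whether the number pairs CeD+GR libraries with the others is therefore not settled either, and the block rests on a shared number alone. Chac1 is limited by 7 to 129 reads per library.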

Other observations

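For the 3 members with the widest range, the genes with the most similar pattern were named among 10950 protein-coding genes averaging 1 FPKM or more, by the root mean square difference of centred log2 values over the 9 libraries. For Chac1 these were Cyp20a1, Sh3bp4 and Etv5, at 0.20, 0.25 and 0.29 log2 units, where the median gene was at 0.82. For Phgdh they were Mif, Fpgs and Rcc2, each at 0.20, with a median gene at 0.91. Fpgs encodes the enzyme that adds glutamates to folates, and its level was 8.04 FPKM in CeD+GR 3 and 0.818 to 3.54 FPKM in the other libraries. For Mthfd2 they were Mageh1, Eef2kmt and Sh3bp4, at 0.14, 0.21 and 0.21, with a median gene at 0.78. Since the genes were picked for their likeness to members that are highest in CeD+GR 3, their own level there was set by the choice, and Etv5 reached the minimum only through that library, with a mean of 0.950 FPKM over the other 8.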
